A study of Ictalurus furcatus with 6 samples.

Results

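The genes of mitochondrial complex I, the NADH:ubiquinone oxidoreductase, were examined in testicular sperm of blue catfish (*Ictalurus furcatus*). Members were chosen by name: every feature of the deposited expression table whose gene name begins with *nduf* was taken, which gave 46 of 27416 features. Of these, 39 carry the name of a subunit and 7 that of an assembly factor (*ndufaf*). The 39 include *ndufa4l*, whose family is now placed with complex IV.

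The 3 cryopreserved samples (C2, C3 and C5) held sperm extracted from the testis, which was diluted in Hank's balanced salt solution with methanol as cryoprotectant and then cooled inside straws by a controlled-rate freezer. The 2 fresh-frozen samples (F2 and F3) held sperm collected from the dissected testes and flash-frozen in liquid nitrogen without those steps. All samples came from mature males of the D&B strain and were thawed in the same way before total RNA was extracted, and polyadenylated RNA was sequenced. The number in a name is that of the male, so C2 and F2 came from male 2 and C3 and F3 from male 3. C5 has no fresh-frozen partner here, because the deposited expression table has no column for F5. The paper's supplement lists F5 as excluded, with a low percentage of mapped reads. By the paper's methods, the extracted sperm came from the testis tissue left after the fresh-frozen samples were collected. The way of collection, dilution, methanol, rate of freezing and storage (straws in nitrogen vapour for the cryopreserved samples only) all separate the groups and cannot be told apart.

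Complex I takes electrons from NADH, hands them through a chain of iron-sulfur clusters to ubiquinone and pumps protons across the inner mitochondrial membrane. It is shaped like an L, with a matrix arm that carries the redox centres and a membrane arm that pumps the protons. Its core subunits do the catalysis, many accessory subunits surround them, and the assembly factors help to build the complex without staying in it. In sperm, oxidative phosphorylation is one of the sources of the ATP that drives the flagellum. The roles given below are those known from mammalian complex I.

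The values are CPM, that is, reads of a feature for every 1000000 reads counted in the library, without division by gene length, so that levels are compared between samples and not between genes. The columns had totals between 992942 and 997458 CPM. The table does not list how many reads were counted in each library, so the counting error of a value is not given. In the paper's supplement, F2 and F3 each had more filtered reads than any cryopreserved sample, so sequencing depth also differed between the groups. In F2 alone, all low values lay within 0.1 of a step from a whole multiple of 0.362 CPM. If that step is a single read, the lowest F2 values rest on few reads. This is uncertain, since values near the same multiple differed (0.719 CPM for *Ndufa1* and 0.741 CPM for *sdhaf1*). Such a step would also mean far fewer counted reads than the filtered reads that the supplement lists for F2. The median feature stood at 2.03 CPM in C5, against 9.55 to 15.7 CPM in the other columns, so C5 stands apart. In C5 2664 features were listed at 0, against 0 to 566 in the other columns. Over the 27255 features tested, the median log2 fold change, cryopreserved over fresh-frozen, was -1.02, and all changes below are to be read against that shift. A fold change here compares mean log2(CPM + 1), so that it is too small for genes with low values. The label sperm was checked against markers: 7 of 10 names of spermatid and sperm markers had a feature, and these summed to 4542, 2276 and 9004 CPM in C2, C3 and C5, against 523 and 539 CPM in F2 and F3. Much of the cryopreserved sums came from *tekt1* alone. Of the 8 features with these names, 5 had a log2 fold change above 0 and 3 below 0, down to -1.66. Markers of spermatogonia and meiosis (6 of 8 names) were also present, with 122 to 378 CPM in the cryopreserved and 248 to 285 CPM in the fresh-frozen samples.

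Most of the complex I subunits stood at a higher level in cryopreserved than in fresh-frozen sperm, but no single one passed the threshold for a differentially expressed gene (DEG). In 29 of the 39 subunits all 3 cryopreserved samples exceeded both fresh-frozen ones, a pattern shown by 13.6% of all features tested. In 3 subunits (*ndufs6*, *ndufb2* and the feature named *ndufa6* in lower case) all 3 cryopreserved samples lay under both fresh-frozen ones, a pattern shown by 41.7% of all features. The groups overlapped in the other 7 (*ndufa7* in lower case, *ndufa8*, *NDUFA3*, *ndufb8*, *NDUFS8*, *Ndufv1* and *ndufv2*). The log2 fold change was above 0 in 34 of 39 subunits (25% of all features), above 1 in 22 (12.4% of all features) and above 2 in 12 (6.06% of all features). It was below -1 in 2 subunits, *ndufs6* and *ndufb2* (50.6% of all features). The median was 1.06, which is 2.08 above the median of all features, and the values ran from -1.49 to 3.41. All 46 members passed the filter on low values and 0 were listed at 0 in a sample. However, *NDUFA7* (AUIFUG00000012831) and *NDUFB1* passed it only through the cryopreserved samples, where they are high. Both are within the counts of 29 and 34, and *NDUFB1* is also within those of 22 and 12. Their place in these counts is thus no support, and *NDUFB1* also enters the counts by p and by call below. Both are also within the later counts of higher subunits by percentile rank and by male, where their place is no support either. The same holds for *NDUFA7* in the count of the matrix arm and for *NDUFB1* in that of the membrane arm. The sum of spermatid and sperm markers was higher in all 3 cryopreserved samples as well, and its part in this result was not tested.

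DEGs were defined by an FDR below 0.05 and an absolute log2 fold change above 2. By limma with Benjamini-Hochberg adjustment over all features, 0 of the 39 subunits and 0 of the 7 assembly factors were DEGs in either direction, while 421 features (1.54%) were upregulated DEGs and 0 were downregulated. At an unadjusted p below 0.05, 15 subunits were higher (6.89% of all features) and 0 were lower (11.3% of all features). The lowest FDR of a subunit was 0.121 (*ndufb4*). An exact two-sided permutation test of a single gene over 3 against 2 samples cannot go below p = 0.1.

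This outcome depends on the scaling, on the pairing by male and on single samples. With the male as a replicate block, which rests on males 2 and 3, 8 subunits passed as upregulated (4.17% of all features): *NDUFA6*, *NDUFB1*, *NDUFB7*, *ndufa11*, *ndufa13*, *ndufa4l*, *ndufb4* and *ndufs5*. That fit has 1 residual degree of freedom, so its estimate of the spread was taken from the trend over all features. After rescaling by TMM factors (trimmed mean of M-values), 5 subunits passed (2.02% of all features), namely *ndufb4*, *NDUFA6*, *ndufa11*, *ndufa13* and *NDUFB7*, at FDRs between 0.0425 and 0.0496. The same 5 passed without C5 (3.1% of all features), and they were also among the 12 that passed after quantile normalization (5.21%) and the 12 that passed without C3 (6.77%).

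**Figure D1:**
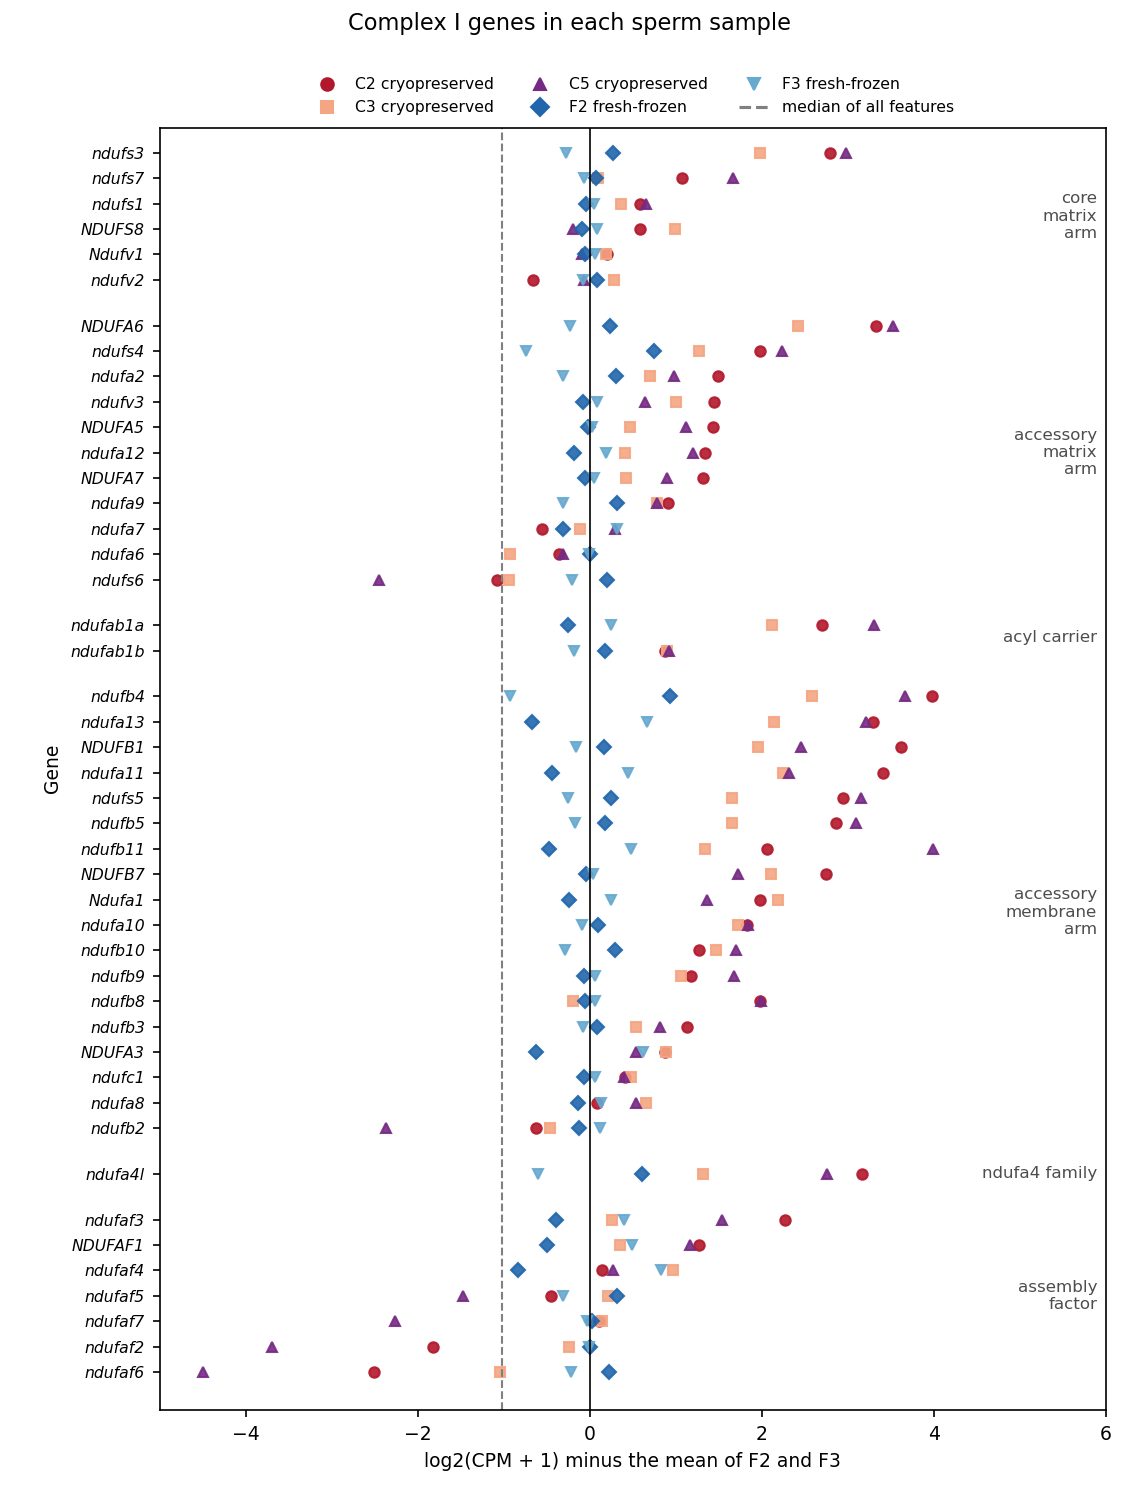
The complex I genes reported one by one (rows, grouped by place in the complex) in each sample, as log2(CPM + 1) minus the mean of F2 and F3, with cryopreserved C2, C3 and C5 in red, orange and purple and fresh-frozen F2 and F3 in blue. In most of the subunits drawn all 3 cryopreserved points lie to the right of both fresh-frozen points, which is the case for 0 of 7 assembly factors. The dashed line is the median of all features (-1.02).

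The core subunits of the matrix arm hold the flavin and the iron-sulfur clusters. All 7 nuclear-encoded core genes had a feature, and in 4 of them all 3 cryopreserved samples exceeded both fresh-frozen ones (13.6% of all features). The median of their log2 fold changes was 0.54. The summed level of the 7 was 489, 473 and 556 CPM in C2, C3 and C5, against 324 and 332 CPM in F2 and F3.

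*ndufs3*, a subunit near the base of the matrix arm, showed the widest difference of the core genes. It stood at 38.3, 21.4 and 43.5 CPM in C2, C3 and C5, against 5.83 and 3.70 CPM in F2 and F3 (log2 fold change 2.58, SE 0.91, limma FDR 0.265). The groups are far apart, with the lowest cryopreserved value over 3 times the highest fresh-frozen one.

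*ndufs7*, which carries the last iron-sulfur cluster before ubiquinone, stood at 47.6, 23.7 and 72.6 CPM in C2, C3 and C5, against 23.3 and 21.0 CPM in F2 and F3. Its C3 value was barely above F2, so that the separation rests on a narrow gap. *ndufs1*, which carries several of the iron-sulfur clusters, stood at 174, 149 and 184 CPM in C2, C3 and C5, against 112 and 120 CPM in F2 and F3 (0.54, SE 0.53, limma FDR 0.484). The groups did not overlap although the difference was small.

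The remaining core genes overlapped between groups. *Ndufv1*, which binds NADH and the flavin, stood at 85.9, 85.7 and 70.3 CPM in C2, C3 and C5, against 71.8 and 78.1 CPM in F2 and F3 (0.10, SE 0.63, limma FDR 0.918). *ndufv2*, its partner at the tip of the matrix arm, stood at 37.8, 73.4 and 57.5 CPM in C2, C3 and C5, against 63.8 and 57.0 CPM in F2 and F3 (-0.15, SE 0.71). *NDUFS8*, which carries a pair of iron-sulfur clusters, stood at 19.2, 25.7 and 10.7 CPM in C2, C3 and C5, against 11.7 and 13.3 CPM in F2 and F3 (0.46, SE 0.92). For *NDUFS8*, C5 was the lowest of all 5 samples in CPM, and for *ndufv2* C2 was. As a percentile among all features of its own sample, *NDUFS8* stood at 66.8, 62.8 and 73.1 in C2, C3 and C5, against 43.8 and 46.3 in F2 and F3. On that scale *ndufv2* stood at 80.9, 86.2 and 89.2, against 82.3 and 80.6.

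**Figure D2:**
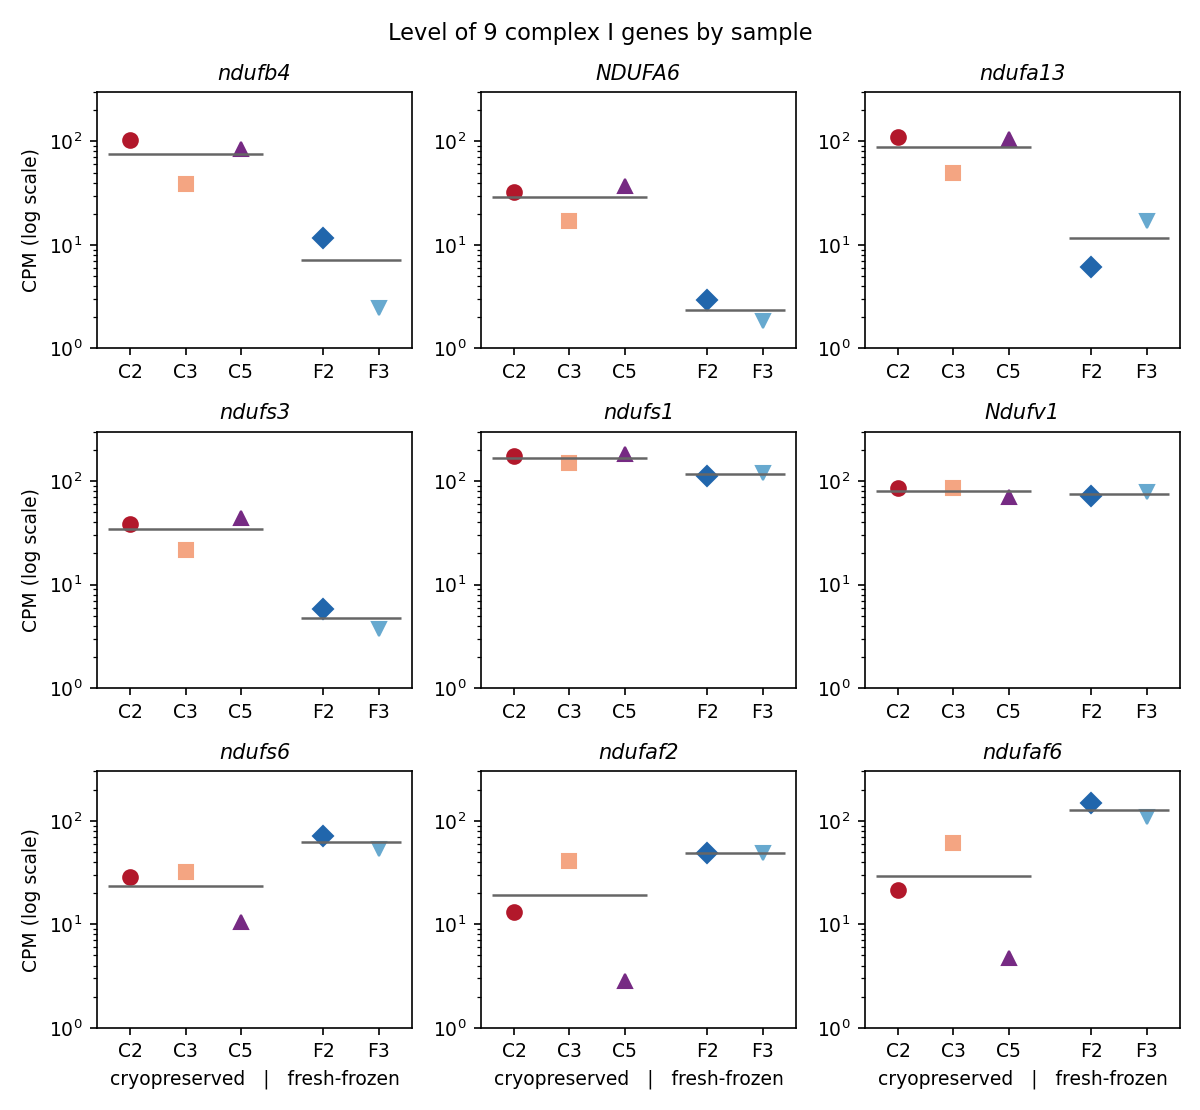
CPM on a log axis of 9 complex I genes in the 5 samples, with cryopreserved samples on the left and fresh-frozen samples on the right of each panel and a line at each group mean. The groups are far apart for *ndufb4*, *NDUFA6*, *ndufa13* and *ndufs3*, overlap for *Ndufv1*, and have the cryopreserved samples below for *ndufs6*, *ndufaf2* and *ndufaf6*, where C5 is lowest.

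Of the 11 accessory features of the matrix arm, 8 had every cryopreserved sample above both fresh-frozen samples (13.6% of all features) and 2 had every one below (41.7%). Their median log2 fold change was 0.98 and their summed level was 461, 307 and 385 CPM in C2, C3 and C5, against 244 and 205 CPM in F2 and F3. The upper-case *NDUFA7* is among the 8, where its place is no support. The widest difference was that of *NDUFA6*, a small protein of the LYR family that binds the acyl carrier protein, in the feature AUIFUG00000043673. It stood at 32.6, 16.8 and 37.4 CPM in C2, C3 and C5, against 2.92 and 1.83 CPM in F2 and F3 (3.09, SE 0.95, limma FDR 0.190). Its group means were 28.9 ± 10.7 CPM in cryopreserved (SD, n = 3) and 2.37 ± 0.769 CPM in fresh-frozen samples (SD, n = 2), a ratio of 12.2. If a single read in F2 is near 0.362 CPM, its F2 value rests on few reads, and the ratio is uncertain.

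A different feature with the same name was lower in all 3 cryopreserved samples. *ndufa6* (AUIFUG00000000656) stood at 2.88, 1.63 and 3.01 CPM in C2, C3 and C5, against 4.0 and 3.96 CPM in F2 and F3 (-0.53, SE 0.80, limma FDR 0.648), and its direction turned after rescaling (0.43 with TMM factors). *NDUFA7*, which stabilises the matrix arm, was also listed under 2 features. AUIFUG00000012831 stood at 2.51, 0.880 and 1.63 CPM in C2, C3 and C5, against 0.359 and 0.459 CPM in F2 and F3 (0.88, SE 0.62). This feature and *NDUFB1* had a fresh-frozen mean under 1 CPM and passed the filter on low values only through the cryopreserved samples. The lower-case *ndufa7* (AUIFUG00000021303) stood at 1.98, 3.05 and 4.41 CPM in C2, C3 and C5, against 2.54 and 4.46 CPM in F2 and F3 (-0.13, SE 0.83), and here too the sign turned after rescaling (0.82 with TMM factors). How reads were divided between features of the same name is not given in the sources used here, so the values of such pairs are uncertain.

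*ndufs6*, a zinc-binding subunit that joins late in assembly, had the lowest fold change of the subunits. It stood at 28.7, 31.8 and 10.5 CPM in C2, C3 and C5, against 71.4 and 53.5 CPM in F2 and F3 (-1.49, SE 0.84, limma FDR 0.280). All 3 cryopreserved samples were low, and C5 was the lowest in CPM. As a percentile among all features of its own sample, it stood at 75.6, 68.2 and 72.8 in C2, C3 and C5, against 84.4 and 79.3 in F2 and F3. After TMM rescaling its log2 fold change was -0.33. *ndufs4*, an accessory subunit next to *ndufs6* whose loss causes Leigh syndrome in people, stood at 47.0, 28.2 and 56.2 CPM in C2, C3 and C5, against 19.3 and 6.23 CPM in F2 and F3 (1.83, SE 0.89, limma FDR 0.265). The 5 remaining genes of the arm (*ndufa2*, *ndufv3*, *NDUFA5*, *ndufa12* and *ndufa9*) all had separate groups, with log2 fold changes between 0.83 and 1.06. The matrix arm accessory genes thus held both the highest and the lowest subunits outside the membrane arm.

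The acyl carrier protein, which takes part in mitochondrial fatty acid synthesis and also sits in both arms of complex I, was listed under a pair of genes. *ndufab1a* stood at 40.3, 26.7 and 61.8 CPM in C2, C3 and C5, against 4.36 and 6.56 CPM in F2 and F3 (2.71, SE 0.89, limma FDR 0.243). *ndufab1b* stood at 11.2, 11.4 and 11.7 CPM in C2, C3 and C5, against 6.56 and 4.87 CPM in F2 and F3 (0.90, SE 0.92, limma FDR 0.504). Both were higher in all 3 cryopreserved samples, and the cryopreserved values of *ndufab1b* were almost the same.

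Of the 18 accessory genes of the membrane arm, 14 had every cryopreserved sample above both fresh-frozen samples (13.6% of all features). In 1 (*ndufb2*) every one was below (41.7% of all features). *NDUFB1* is among the 14, where its place is no support. The median of the log2 fold changes in this arm was 1.82. Of its 18 genes, 11 were higher at an unadjusted limma p below 0.05 (6.89% of all features), out of 15 such subunits. The difference between the arms was not tested. Among all subunits, the median log2 fold change was 1.84 at a fresh-frozen mean of 10 CPM or less. It was 1.26 from 10 to 30 CPM and 0.83 above 30 CPM. The same fresh-frozen values enter the fold change, so these classes are not independent of it. The lowest class also holds *NDUFB1* and the upper-case *NDUFA7*, which passed the filter on low values only through the cryopreserved samples. The summed level of the 18 genes was 1133, 722 and 1188 CPM in C2, C3 and C5, against 308 and 327 CPM in F2 and F3. *ndufb4*, at the far end of the arm, had the highest fold change of all subunits. It stood at 103, 38.8 and 83.7 CPM in C2, C3 and C5, against 11.7 and 2.48 CPM in F2 and F3 (3.41, SE 0.93, limma FDR 0.121). The fresh-frozen samples differ more than 4-fold from each other, yet both are far below C3, the lowest of the cryopreserved samples.

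*ndufa13*, also known as GRIM-19 and linked to cell death in mammals, sits at the joint of the arms. It stood at 111, 49.4 and 105 CPM in C2, C3 and C5, against 6.18 and 17.1 CPM in F2 and F3 (2.88, SE 0.83, limma FDR 0.154). *NDUFB1*, a short subunit that crosses the membrane, stood at 22.0, 6.24 and 9.24 CPM in C2, C3 and C5, against 1.09 and 0.668 CPM in F2 and F3 (2.68, SE 0.94, limma FDR 0.265). C2 was more than 2 times any other sample there. Genes named *ndufa6*, *ndufb1* and *ndufb4* were marked as upregulated by the study on these same samples, so their direction is not independent evidence. These names are meant without regard to case, so the name *ndufa6* alone does not tell its 2 features apart. Of these, only the upper-case *NDUFA6* was higher in cryopreserved samples here (log2 fold change 3.09, against -0.53 for the lower-case feature).

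Further members with wide differences were *ndufa11*, *ndufs5*, *ndufb5*, *ndufb11* and *NDUFB7*. *ndufa11*, a membrane protein beside the core, stood at 70.8, 31.2 and 32.9 CPM in C2, C3 and C5, against 3.99 and 8.22 CPM in F2 and F3 (2.66, SE 0.91). *ndufs5*, which faces the intermembrane space, stood at 99.6, 40.4 and 116 CPM in C2, C3 and C5, against 14.6 and 10.0 CPM in F2 and F3 (2.59, SE 0.82). In both genes the groups stood far apart, and C3 was the lowest cryopreserved sample. *NDUFB7*, on the same face as *ndufs5*, stood at 74.0, 47.1 and 35.9 CPM in C2, C3 and C5, against 9.83 and 10.5 CPM in F2 and F3 (2.19, SE 0.83). *ndufb11*, which is linked to heart muscle disease in people, stood at 32.4, 19.1 and 126 CPM in C2, C3 and C5, against 4.72 and 10.1 CPM in F2 and F3 (2.47, SE 1.01). Its C5 value was nearly 4 times that of C2, the next highest. The groups were also separate in *ndufb5* (2.54), *Ndufa1* (1.84), *ndufb10* (1.48), *ndufb3* (0.83) and *ndufc1* (0.43), and they overlapped in *NDUFA3* (0.77) and *ndufa8* (0.43), all on the log2 fold change scale.

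*ndufa10*, which resembles a nucleoside kinase, was even within each group. It stood at 75.4, 69.8 and 75.7 CPM in C2, C3 and C5, against 21.9 and 19.1 CPM in F2 and F3 (1.80, SE 0.73, limma FDR 0.265). *ndufb9*, another LYR protein, was likewise even at 134, 123 and 189 CPM in C2, C3 and C5, against 55.7 and 61.2 CPM in F2 and F3 (1.31, SE 0.60). In *ndufb8*, one of the distal subunits, the cryopreserved samples split. It stood at 76.6, 16.1 and 77.2 CPM in C2, C3 and C5, against 17.8 and 19.4 CPM in F2 and F3, so that C3 lay with the fresh-frozen samples.

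*ndufb2* was the exception of the membrane arm. It stood at 2.52, 2.94 and 0.0554 CPM in C2, C3 and C5, against 4.0 and 4.91 CPM in F2 and F3 (-1.15, SE 0.85, limma FDR 0.361). These levels are low and C5 was nearly at 0. *ndufa4l*, of a family first counted in complex I and now placed with complex IV, stood at 256, 70.7 and 194 CPM in C2, C3 and C5, against 42.6 and 17.9 CPM in F2 and F3 (2.41, SE 0.76, limma FDR 0.213). The groups of *ndufa4l* did not overlap. By its name it is within the counts, medians and sums given for the subunits.

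The subunits summed to 2390, 1610 and 2397 CPM in C2, C3 and C5, against 930 and 893 CPM in F2 and F3. C3 was the nearest of the cryopreserved samples to the fresh-frozen ones and had the lowest cryopreserved value in 23 of 39 subunits. Over the 27255 features tested, C3 was the lowest cryopreserved sample in 5145 and C5 in 20394. The median difference of a subunit from the fresh-frozen mean was 1.34, 0.99 and 1.36 on the log2 scale in C2, C3 and C5, against -0.74, -0.21 and -1.93 for the median of all features. C5, in which features at large lay furthest below the fresh-frozen mean, was thus as high as C2 in the subunits.

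Within a sample, a subunit's rank among all features does not depend on the scaling of the library. The median percentile rank of the subunits was 84.6, 65.2 and 89.0 in C2, C3 and C5, against 44.2 and 46.3 in F2 and F3. On these ranks 33 of 39 subunits had every cryopreserved sample above both fresh-frozen samples, against 20.3% of all features. *NDUFB1* and the upper-case *NDUFA7* are among these 33, where their place is no support. In the membrane arm the median rank was 89.6, 66.5 and 91.1 in C2, C3 and C5, against 40.1 and 40.0 in F2 and F3. In the core genes it was 84.6, 86.2 and 90.6 in C2, C3 and C5, against 68.9 and 72.1 in F2 and F3.

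**Figure D3:**
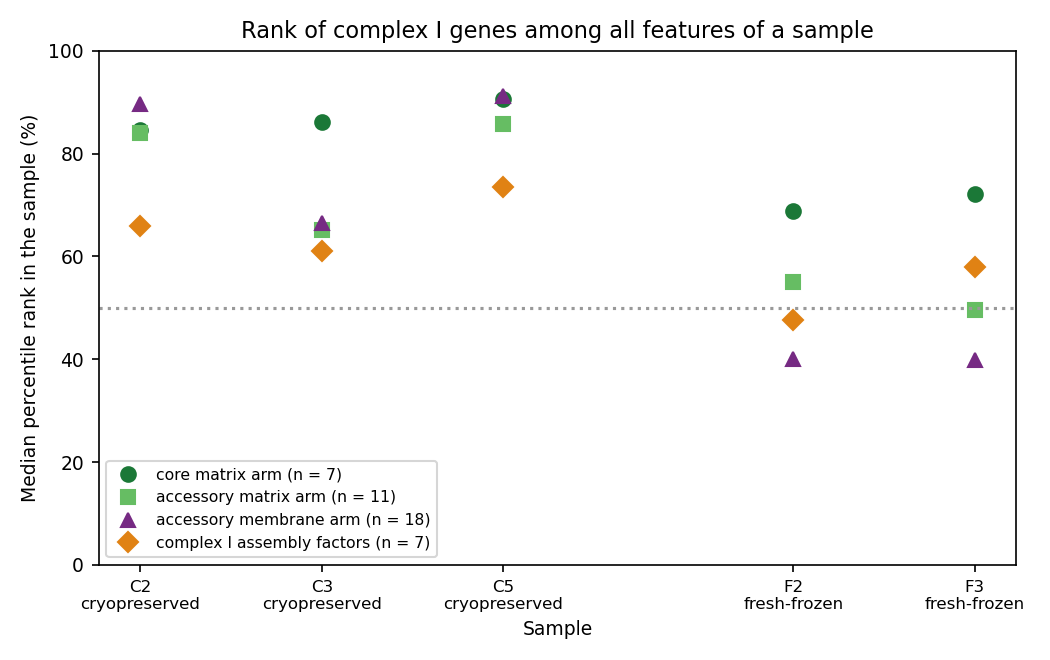
Median percentile rank of 4 groups of complex I genes among all features of a sample, with cryopreserved samples on the left, fresh-frozen samples on the right and a dotted line at 50. Membrane arm genes sit at 66.5 to 91.1 in the cryopreserved and near 40 in the fresh-frozen samples, while assembly factors sit at 61.1 to 73.4 and 47.6 to 58.0.

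Males 2 and 3 each gave both kinds of sample. In 33 of 39 subunits the cryopreserved sample was higher in both males (21.6% of all features), and in 4 it was lower in both (51.1% of all features). The median difference was 1.37 in male 2 and 0.99 in male 3. *NDUFB1* and the upper-case *NDUFA7* are among the 33, where their place is no support. *ndufb8* (2.04 in male 2 and -0.25 in male 3) and *ndufv2* (-0.74 in male 2 and 0.36 in male 3) were the subunits in which the males differed in sign. C2 was sequenced as a pair of technical replicates, whose ratio had a median of 1.13 over the subunits and a maximum of 2.75 in *NDUFA7*.

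**Figure D4:**
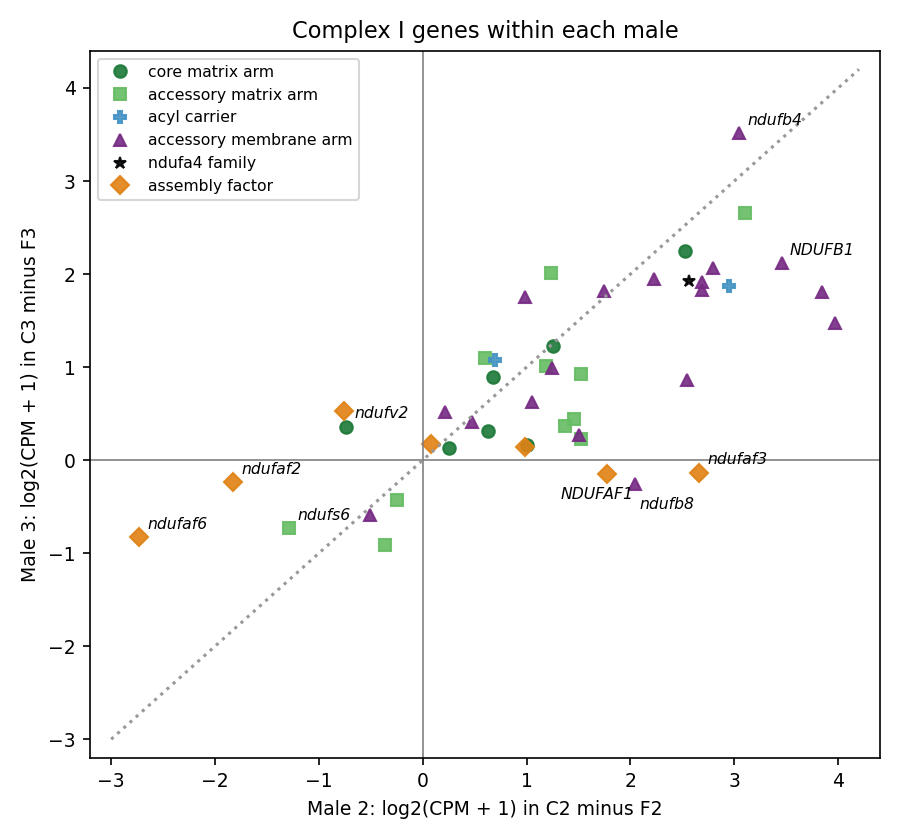
Difference of log2(CPM + 1) between the cryopreserved and the fresh-frozen sample of male 2 (horizontal) and of male 3 (vertical) for the 46 complex I genes, with equal differences on the dotted line. Of 39 subunits, 33 lie above 0 in both males, and *ndufaf2* and *ndufaf6* lie below 0 in both.

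The 7 assembly factors gave a mixed picture. In 0 of 7 every cryopreserved sample was above the fresh-frozen pair (13.6% of all features), and in 2 of 7 every one was below (41.7% of all features). The median log2 fold change was -0.57, which is 0.45 above the median of all features. They summed to 130, 202 and 66.2 CPM in C2, C3 and C5, against 275 and 240 CPM in F2 and F3. The difference between subunits and assembly factors was not tested, and the direction of the factors depends on the scaling, since their median was 0.59 after TMM rescaling, against 2.21 for the subunits. Their median was also above 0 without C5 (0.12). After that rescaling 4 of 7 factors had every cryopreserved sample above both fresh-frozen samples (24% of all features) and 1 below (17.8%), and on percentile ranks 2 were above and 2 below (20.3% and 29.1% of all features).

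*ndufaf6*, needed early for the membrane core, had the lowest fold change of all 46 genes. It stood at 21.5, 61.0 and 4.69 CPM in C2, C3 and C5, against 148 and 109 CPM in F2 and F3 (-2.68, SE 0.99, limma FDR 0.265). *ndufaf2*, a relative of *ndufa12* that holds its place during assembly, stood at 13.2, 41.2 and 2.86 CPM in C2, C3 and C5, against 49.2 and 48.8 CPM in F2 and F3 (-1.92, SE 1.07, limma FDR 0.277). In both, C5 was the lowest and C3 the nearest to the fresh-frozen samples. Without C3, both passed as downregulated at log2 fold changes beyond -2, when 25.6% of all features did so.

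*ndufaf5*, which hydroxylates *ndufs7*, stood at 29.7, 47.6 and 14.1 CPM in C2, C3 and C5, against 51.0 and 32.7 CPM in F2 and F3 (-0.57, SE 0.85). *ndufaf7*, a methyltransferase, stood at 14.7, 15.1 and 2.03 CPM in C2, C3 and C5, against 13.8 and 13.3 CPM in F2 and F3 (-0.67, SE 1.06). Only C5 was low in CPM in *ndufaf7*, and without C5 its log2 fold change was 0.12. The percentile rank of *ndufaf7* was 60.4, 50.1 and 50.1 in C2, C3 and C5, against 47.6 and 46.2 in F2 and F3. Both genes turned to positive values after rescaling (0.59 and 0.35 with TMM factors).

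*ndufaf3* and *ndufaf4* act together early in the assembly of the matrix arm. *ndufaf3* stood at 19.1, 3.98 and 11.1 CPM in C2, C3 and C5, against 2.17 and 4.47 CPM in F2 and F3 (1.36, SE 1.0). *ndufaf4* stood at 13.1, 24.1 and 14.5 CPM in C2, C3 and C5, against 6.17 and 21.8 CPM in F2 and F3 (0.46, SE 0.96), and without F2 its log2 fold change was -0.37. *NDUFAF1*, which builds the membrane arm together with *ecsit* and *ACAD9*, stood at 18.5, 9.24 and 17.0 CPM in C2, C3 and C5, against 4.72 and 10.3 CPM in F2 and F3 (0.93, SE 0.95). The groups overlapped in all 3 genes, and the limma FDR was between 0.362 and 0.744.

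Assembly genes of complex I with other names were taken as a list. Of 12 names, 7 had a feature, and 0 of these were DEGs (1.54% of all features were, all upregulated). In 0 every cryopreserved sample was above (13.6% of all features) and in 1 below (41.7%), and the median was -0.23. The 1 below was *foxred1*, an oxidoreductase needed for assembly, at 17.3, 36.8 and 4.19 CPM in C2, C3 and C5, against 49.2 and 47.7 CPM in F2 and F3 (-1.69, SE 0.99). *ACAD9* (-0.79), *ecsit* (-0.23), *nubpl* (-0.21), which delivers iron-sulfur clusters, *tmem70* (-0.39), *timmdc1* (0.10) and *tmem186* (0.48) had overlapping groups. The 7 genes for core subunits that are encoded in the mitochondrial genome had no feature by name (0 of 7), and *ndufb6*, *ndufc2* and *ndufaf8* had none under those names.

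Genes of the other complexes of oxidative phosphorylation were taken by name. Of 45 features named for complexes II to V, 26 had every cryopreserved sample above both fresh-frozen samples (13.6% of all features) and 4 below (41.7%). Their median log2 fold change was 0.94. Unlike the complex I subunits, this list also holds assembly factors, among them *sdhaf1*, *sdhaf2* and *sdhaf4*. With a fresh-frozen mean of 0.371 CPM, *sdhaf1* passed the filter on low values only through the cryopreserved samples. Its place among the 26 is thus no support. There was 1 upregulated DEG among the 45, where 1.54% of all features were. This was *atp5b*, the catalytic subunit of ATP synthase. It stood at 532, 303 and 643 CPM in C2, C3 and C5, against 66.7 and 53.3 CPM in F2 and F3 (2.96, SE 0.52, limma FDR 0.0165). The difference between complex I and the other complexes was not tested.

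Markers of cell types moved beside these groups. Of the 8 spermatid and sperm features, 3 were upregulated DEGs (*tekt1*, *SPAG6* and *spag6*), against 1.54% of all features. In 5 every cryopreserved sample was above (13.6% of all features) and in 1 below (41.7%), and 3 of the 8 had a log2 fold change below 0. *tekt1*, a tektin of the flagellum, stood at 2526, 1280 and 5292 CPM in C2, C3 and C5, against 98.0 and 104 CPM in F2 and F3. Among the cryopreserved samples, the sum of the spermatid and sperm markers was lowest in C3, as was that of the subunits. Much of that sum was *tekt1*, and by feature C3 was lowest in 5 of the 8 and C5 in 3. Over the 27255 features tested, these counts were 5145 for C3 and 20394 for C5. Red blood cell markers (3 of 6 names) summed to 92.4 to 765 CPM in cryopreserved and 142 to 167 CPM in fresh-frozen samples, and leukocyte markers (3 of 5) to 205 to 323 CPM and 247 to 262 CPM. Within the leukocyte list, *lcp1* was above (1.90) and *PTPRC*, the defining pan-leukocyte gene, below (-2.18) in every cryopreserved sample. Sertoli markers (3 of 7) summed to 4.24 to 32.3 CPM in cryopreserved and 30.9 to 31.6 CPM in fresh-frozen samples, with *inhbb* at 0.00 CPM in C5, and Leydig markers (2 of 6) to 8.08 to 27.7 CPM and 18.6 to 32.8 CPM. In bulk samples fewer cells of a type and less RNA per cell cannot be told apart.

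**Figure D5:**
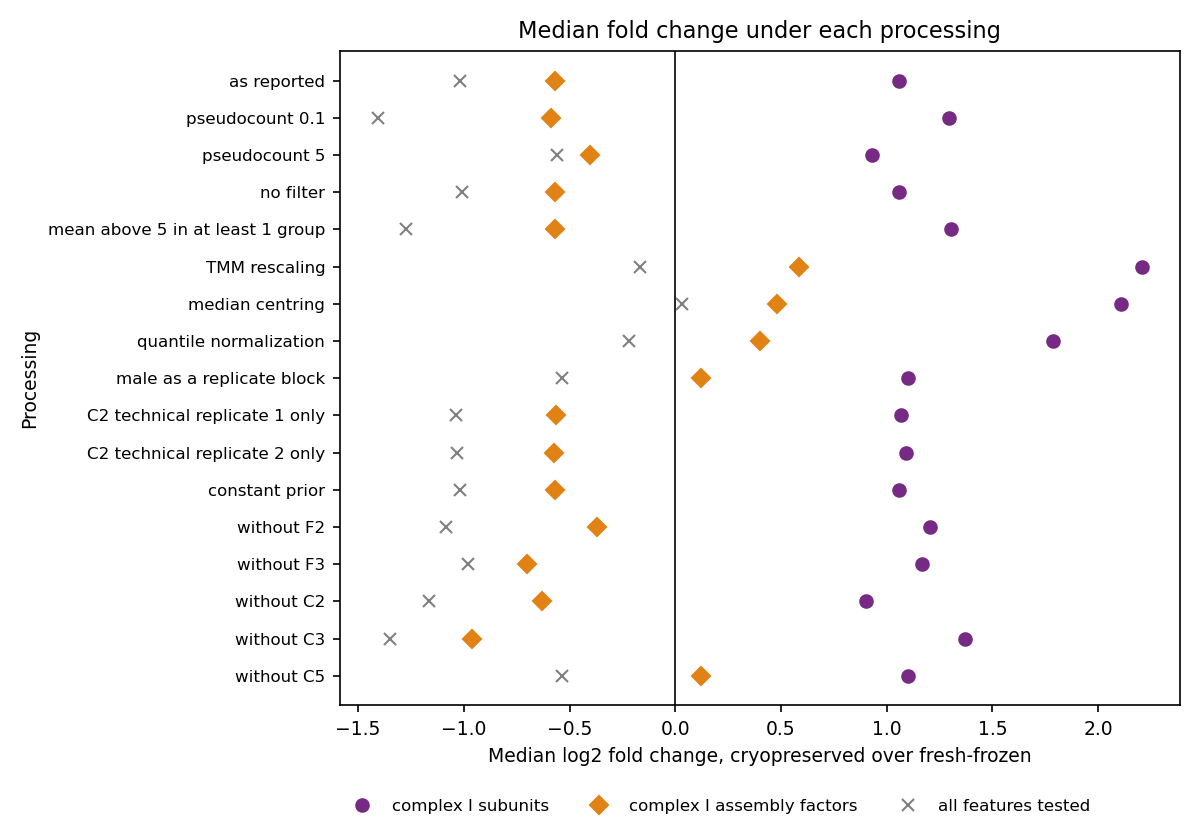
Median log2 fold change, cryopreserved over fresh-frozen, of the 39 subunits, the 7 assembly factors and all features under each processing (rows). The subunits stay between 0.90 and 2.21 and above all features in every row, whereas the assembly factors run from -0.96 to 0.59.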

How the data were processed

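RNA-seq libraries of 3 cryopreserved and 2 fresh-frozen blue catfish sperm samples were analysed. Per the paper's methods and the processing notes, the authors checked reads with FastQC 0.11.6, trimmed them with Trimmomatic 0.39, mapped them with TopHat 2.1.1 to the blue catfish genome (build not given in the sources used here), obtained gene counts from HTSeq 1.0 and used edgeR for their own tests. The library kit keeps strand, but the counting setting is not given.

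The deposited sample values, which the authors call RPKM, sum to nearly 1000000 per column and were treated as CPM. A deposited column of average log2 CPM, which the authors made with edgeR, served only to check that unit. Low values lay near whole multiples of a step in F2 only, and that step may not be a single read. No count test or counting interval is thus given.

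Both technical replicates of C2 were averaged. Features whose mean exceeded 1 CPM in either group were tested on log2(CPM + 1) with limma 3.58.1 (trended prior, R 4.3.3) and Benjamini-Hochberg adjustment over all of them. Other steps ran in Python 3.11.15, pandas 2.3.3, scipy 1.17.1 and matplotlib 3.10.9. The limma step was also run on simulated counts of equal depth in all samples. These held no shift like that of C5, so that run does not show how the test behaves on these data.

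A name was taken from the Ensembl column (42 members) or, where that held no symbol, from the eggNOG column (4 members), and 41 of 46 matched a symbol of the RefSeq gene list of the species. Values in every sample are given for the core subunits (1 of them enters the counts but is not reported here), all assembly factors, the 3 highest and 3 lowest subunits, genes marked by the study and repeated names, and for other members whose values show the spread, chosen after their values were seen. Members and gene lists were chosen with earlier results of these data known. The samples were paired by male, whose number the paper gives. With only 2 pairs, the deviations of same-numbered samples (C2 minus C3 and F2 minus F3) had a correlation of -0.02 across all 27416 features and 0.12 across the 46 members, and a replicate block for the male was fitted as an alternative. Other alternatives were pseudocounts of 0.1 and 5, other filters, TMM, median and quantile scaling, a constant prior, single technical replicates and each sample left out.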

Additional observations from a re-analysis of the deposited data

How the results depend on the processing

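No member was called under either pseudocount, either other filter, median centring, a constant prior or a single technical replicate of C2. The number of subunits called as upregulated was 5 after TMM rescaling, 12 after quantile normalization and 8 with the male as a replicate block, and 0 to 12 when each sample was left out (12 without C3, 5 without C5). It was 0 in all of these for downregulated subunits, and 0 to 2 for downregulated assembly factors (2 without C3). The 5 genes *NDUFA6*, *NDUFB7*, *ndufa11*, *ndufa13* and *ndufb4* were called in all 5 settings that gave upward calls of members. In at least 1 of them 13 subunits were called, *NDUFB1* among them. Each of these settings called between 2.02% and 6.77% of all features upward. How many of all features were called in all 5, or in at least 1, was not counted. The settings share samples and are not separate support. Scaling moved the median of all features to -0.16 with TMM, 0.03 with median centring and -0.22 with quantiles.

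The median of the subunits was 1.29 with a pseudocount of 0.1, 1.31 with a filter of 5 CPM, 2.21 with TMM, 2.11 with median centring, 1.79 with quantiles and 0.90 to 1.37 with each sample left out (1.37 without C3). That of the assembly factors was 0.59 with TMM, 0.48 with median centring and 0.40 with quantiles, 0.12 with the male as a replicate block, and -0.96 to 0.12 with each sample left out (0.12 without C5). With a filter of 5 CPM, 35 subunits were tested and 1 had all cryopreserved samples under the fresh-frozen ones (46.5% of all features). That number was 0 with TMM (17.8% of all features) and 0 with median centring (24.4%). Assembly factors with all cryopreserved samples above numbered 4 with TMM (24% of all features), 1 with median centring (21.8%), 2 with quantiles (20.3%) and 2 on percentile ranks (20.3%). They numbered 0 to 2 with a cryopreserved sample left out (14.1% to 18.1% of all features). Those below numbered 1 with TMM (17.8% of all features) and 2 to 3 with a cryopreserved sample left out (42.3% to 60.4%). The count of non-overlapping groups and the percentile ranks were chosen after seeing the data.

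Of the 46 genes, 6 changed sign. With TMM, median centring and quantiles, the log2 fold change was 0.43, 0.52 and 0.49 for *ndufa6* (AUIFUG00000000656), 0.59, 0.48 and 0.29 for *ndufaf5*, 0.35, 0.38 and 0.40 for *ndufaf7*, 1.03, 0.90 and 0.38 for *ndufv2*, and 0.82, 0.92 and 0.76 for *ndufa7*. It was 0.12 for *ndufaf7* with the block. With each sample left out it ran from -1.08 to 0.12 for *ndufaf7* (0.12 without C5), from -0.37 to 1.30 for *ndufaf4* (-0.37 without F2), from -0.36 to 0.11 for *ndufv2* (0.11 without C2) and from -0.44 to 0.19 for *ndufa7* (0.19 without F3, 0.09 without C2). Beyond the 8 subunits above, the replicate block changed no call of a member. The cause of these shifts was not tested. Only 3 and 2 samples stand behind each value. Their counting error is not known from the table, although a single read in F2 may be near 0.362 CPM.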

Other observations

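Some complex I genes carry names that the *nduf* rule does not reach. The feature C17orf89 (AUIFUG00000030712), which the table describes as complex I assembly factor 8, stood at 4.15, 4.51 and 1.90 CPM in C2, C3 and C5, against 3.27 and 5.40 CPM in F2 and F3 (log2 fold change -0.26, SE 0.86, limma FDR 0.840). TMEM261, an older name of *dmac1*, which helps to assemble the distal membrane arm, stood at 2.90, 3.06 and 2.98 CPM in C2, C3 and C5, against 0.00 and 1.23 CPM in F2 and F3 (1.41, SE 0.71, limma FDR 0.267). TMEM261 had a fresh-frozen mean under 1 CPM and passed the filter on low values only through the cryopreserved samples. ATP5SL, an older name of *dmac2* of the same pathway, was counted with complex V by its name. It stood at 3.21, 5.86 and 0.710 CPM in C2, C3 and C5, against 8.37 and 11.7 CPM in F2 and F3 (-1.57, SE 0.96, limma FDR 0.298). These genes were looked at after their values were seen, and none passed the test.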
